A study of Mus musculus with 2 samples.

Results

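The cells described here are pituitary stem cells that carried RNA of mitotic genes at postnatal day 3 (P3). They were drawn from 2 single-cell RNA-seq libraries of GFP-positive cells sorted from Sox9iresGFP/+ mice, 1 library from males and 1 from females, each made from 3 pooled pituitaries. In these mice GFP is made from the *Sox9* locus, and because GFP outlasts SOX9 the sort also took in recent progeny of the stem cells. All animals carried the reporter, no animal was treated and every pituitary was taken at P3, so that sex was the only labelled difference, and with 1 library per sex it cannot be told apart from the library. A barcode was a member if it had at least 1000 genes, at most 10% mitochondrial UMIs (unique molecular identifiers, the counted RNA molecules), at least 1 *Sox2* UMI, no *Lef1* UMI, *Cga* under 1000 CPM (UMIs per 1000000 UMIs of the cell), and a sum of at least 4 UMIs over 7 genes, *Mki67*, *Top2a*, *Cenpf*, *Birc5*, *Ccnb1*, *Cdk1* and *Ube2c*. This gave 896 male and 589 female members, 1485 of the 16365 barcodes in the matrices. They were set beside low-score stem cells, which also had a *Sox2* UMI and no *Lef1* UMI but a sum of at most 1, of which there were 3013 male and 3060 female cells.

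SOX2 marks the stem cells of the pituitary, which in the young gland both renew themselves and give rise to endocrine cells. A dividing cell copies its DNA in S phase, checks it in G2 and separates the copies in mitosis. Genes for mitosis are largely switched on together late in this cycle, when the repression that the DREAM complex imposes at a promoter element called the CHR is lifted and the factors B-MYB and FOXM1 act there, while E2F factors drive the genes for replication earlier. Cyclin B1 (*Ccnb1*) and its kinase (*Cdk1*) start mitosis, and the ubiquitin-conjugating enzyme *Ube2c* works with the APC/C to end it. *Mki67* (KI-67) coats mitotic chromosomes, *Top2a* untangles DNA, *Cenpf* sits at the kinetochore and *Birc5* (survivin) belongs to the chromosomal passenger complex.

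The promoters of the genes that chose the cells were read from RefSeq on GRCm38.p6 and searched on both strands for the CHR core, as TTTGAA or TTCGAA, and for CCAAT, to which NF-Y binds. Of the 7 genes, 4 held a CHR core and 6 held CCAAT in the 250 bases before the start, against 17.4% and 34.5% of the 27025 promoters in the table. The 4 with a CHR core are shown together with *Ccnb1*, which held CCAAT alone. Each is written 5′ to 3′ along the transcribed strand up to the base before the start, with matches to the 3 motifs in capitals, including their reverse complements.
*Mki67* (minus strand, chr7:135716380-135716629): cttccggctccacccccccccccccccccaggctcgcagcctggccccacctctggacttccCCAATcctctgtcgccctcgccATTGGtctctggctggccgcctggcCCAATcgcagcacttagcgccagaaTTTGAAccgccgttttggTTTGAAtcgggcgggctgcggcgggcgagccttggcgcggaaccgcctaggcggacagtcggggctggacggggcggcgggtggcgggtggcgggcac
*Top2a* (minus strand, chr11:99024190-99024439): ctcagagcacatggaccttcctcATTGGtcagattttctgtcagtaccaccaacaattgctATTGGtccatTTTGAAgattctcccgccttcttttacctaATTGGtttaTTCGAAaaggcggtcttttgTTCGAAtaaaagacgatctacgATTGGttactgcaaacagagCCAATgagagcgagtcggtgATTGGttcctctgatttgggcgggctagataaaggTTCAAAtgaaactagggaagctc
*Cdk1* (minus strand, chr10:69352913-69353162): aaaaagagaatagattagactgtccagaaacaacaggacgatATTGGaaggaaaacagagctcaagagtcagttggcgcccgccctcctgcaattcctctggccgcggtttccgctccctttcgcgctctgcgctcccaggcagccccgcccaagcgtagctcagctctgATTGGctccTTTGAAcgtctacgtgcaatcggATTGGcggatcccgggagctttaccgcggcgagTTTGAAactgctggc
*Ube2c* (plus strand, chr2:164769679-164769928): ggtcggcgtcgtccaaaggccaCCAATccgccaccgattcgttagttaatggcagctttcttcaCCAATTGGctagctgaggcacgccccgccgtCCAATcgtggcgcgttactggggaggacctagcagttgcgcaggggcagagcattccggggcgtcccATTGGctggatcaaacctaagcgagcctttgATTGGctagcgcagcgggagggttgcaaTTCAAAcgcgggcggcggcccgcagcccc
*Ccnb1* (minus strand, chr13:100786487-100786736): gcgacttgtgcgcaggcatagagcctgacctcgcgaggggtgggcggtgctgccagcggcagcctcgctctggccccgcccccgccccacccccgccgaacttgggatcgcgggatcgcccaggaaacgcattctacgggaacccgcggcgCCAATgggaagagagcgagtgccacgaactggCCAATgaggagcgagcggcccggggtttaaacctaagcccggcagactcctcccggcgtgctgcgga
In *Cdk1*, *Top2a* and *Ube2c* the CHR core nearest the start began at positions -15, -23 and -29 relative to it. In *Ube2c*, a pair of the 6 CCAAT matches overlap, on opposite strands. The *Cenpf* promoter held 2 CCAAT and no CHR core, and the *Birc5* promoter had no match to any of the 3. Among all genes that were at least 2-fold higher in the members of both libraries and had an entry, 45 of 169 promoters (26.6%) held a CHR core, against 345 of 2763 (12.5%) for all tested genes. CCAAT was present in 62.7% and 39.0% of the same promoters. These are matches of letters, and binding was not measured.

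The sum of the 7 genes spread widely among the cells. Its median was 25 UMIs in male and 29 in female members, and its highest value 566 and 441. It reached 30 or more in 413 male and 294 female cells, and all 7 genes were detected in 34.8% and 35.0% of the members. At the edge of the rule, 54 male and 30 female cells had a sum of exactly 4, and 79 male and 57 female cells, with a sum of 3, were just outside. The rule sets the level of the 7 genes there, 257 CPM in the male cells just inside and 224 in those just outside, and 303 and 280 in the female cells. Of 8 late mitotic genes outside the rule, named below, cells just inside had a mean of 0.956 and 1.55 UMIs after a random draw of 5000 UMIs per cell, and those just outside 0.429 and 0.778. At a sum of 30 or more the 7 genes of the rule reached 4274 and 5294 CPM, and the 8 late genes 1759 and 2189 CPM.

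**Figure D1:**
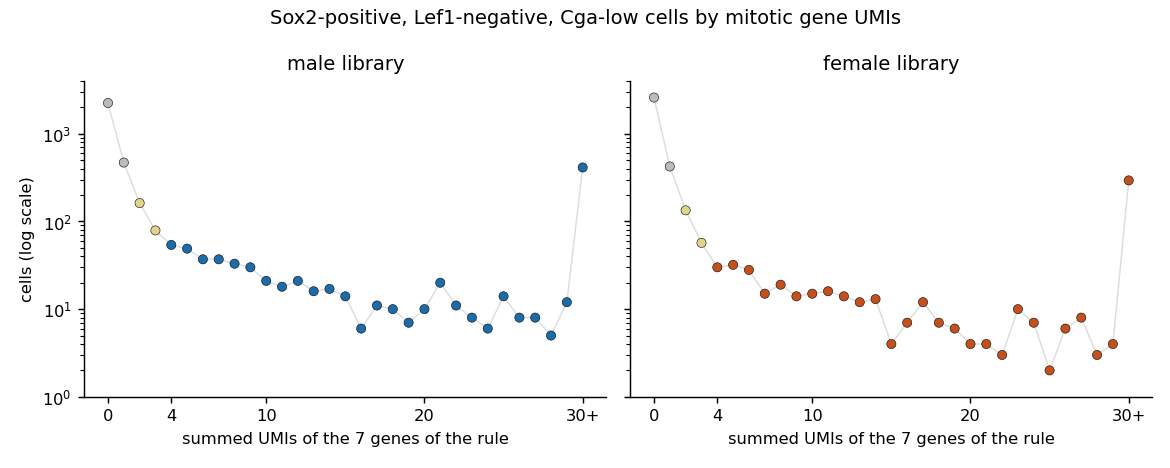
Number of cells (vertical axis, log scale) at each summed UMI count of the 7 genes (horizontal axis, the last point holding 30 and over) among cells with a Sox2 UMI, no Lef1 UMI and Cga under the limit, in the male (left) and female (right) library. Grey points are sums of at most 1, yellow points sums of 2 and 3, and coloured points the members. Most cells had a sum of 0 (2246 male, 2593 female), and 413 male and 294 female cells had 30 or more.

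Members held more RNA molecules than low-score cells. The male members had a median of 17316 UMIs and 4423.5 genes per cell against 9331 and 3072 in low-score cells, and the female members 13579 and 3856 against 8831.5 and 2965, so that the median depth was 1.86-fold and 1.54-fold higher. A cell with more UMIs reaches a sum of 4 more easily. Levels are therefore given as CPM of the summed counts of a group, and shares of cells with a UMI after the same random draw of 5000 UMIs per cell (thinning), for which 63 male and 5 female members were too shallow. Median mitochondrial shares were 2.10% and 3.00% in members and 2.48% and 3.52% in low-score cells. Scrublet, which scores likely doublets, marked 3.57% of male and 9.51% of female members, against 5.91% and 3.30% of low-score cells. The libraries held 106039887 and 62897759 UMIs and shared 19 barcode sequences, 3 of which belonged to members, 2 male and 1 female.

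The rule required a *Sox2* UMI in every member, so that the presence of *Sox2* was set by the choice. *Sox2* was at 584 CPM in male and 707 CPM in female members (exact Poisson 95% intervals 573 to 595 and 690 to 725, which like all intervals here cover counting error only). Other pituitary and epithelial genes that the rule did not use were present as well, with *Epcam* (epithelial adhesion) at 2200 and 2403 CPM, *Pitx1* (pituitary homeobox) at 190 and 191 CPM and *Sox9* at 93.3 and 95.3 CPM. All cells had been sorted on GFP made from the *Sox9* locus, so that *Sox9* was favoured by the sort. Endothelial, immune, pituicyte and erythroid lists summed to at most 4.16 CPM each in either library's members, with 3 of 5 immune genes at 0 in each. Other lineages were read at higher levels. The 7 hormone genes summed to 9880 and 1573 CPM, against 22607 and 6093 CPM in low-score cells, and 7 mesenchymal genes to 139 and 133 CPM. *Pomc* made up 7997 and 1458 CPM of the hormone sum in members. Without cells at 10000 CPM or more of *Pomc* it was at 152 and 54.6 CPM in members and 186 and 66.5 CPM in low-score cells. Without the cells that Scrublet marked, the mesenchymal genes summed to 86.1 and 19.8 CPM in members.

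Many members carried transcripts of replication rather than of mitosis alone, so that G2 and mitosis describes only a portion of them. A set of 8 replication genes (*Mcm3*, *Mcm5*, *Mcm6*, *Gins2*, *Cdc6*, *Ccne2*, *Uhrf1* and *Rrm2*) and a set of 8 late genes (*Plk1*, *Cdc20*, *Ccnb2*, *Aurka*, *Cenpa*, *Cenpe*, *Hmmr* and *Tpx2*), none of them in the rule, were counted in each thinned member. At least 3 late UMIs were found in 53.8% of male and 57.0% of female members (exact Clopper-Pearson intervals 50.3 to 57.2 and 52.9 to 61.1%), and in 0.155% and 0.270% of low-score cells. At least 3 replication UMIs were found in 43.9% and 45.5% of members, and in 5.79% and 5.71% of low-score cells. The sets ran against each other within the members, with Spearman's rho of -0.50 over 833 male and -0.53 over 584 female cells, which share 1 library and 1 depth each. The rule had left out cells with a low sum, few of which held 3 UMIs of either set. How far this choice sets the rho was not tested, and the cells are not replicates.

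**Figure D2:**
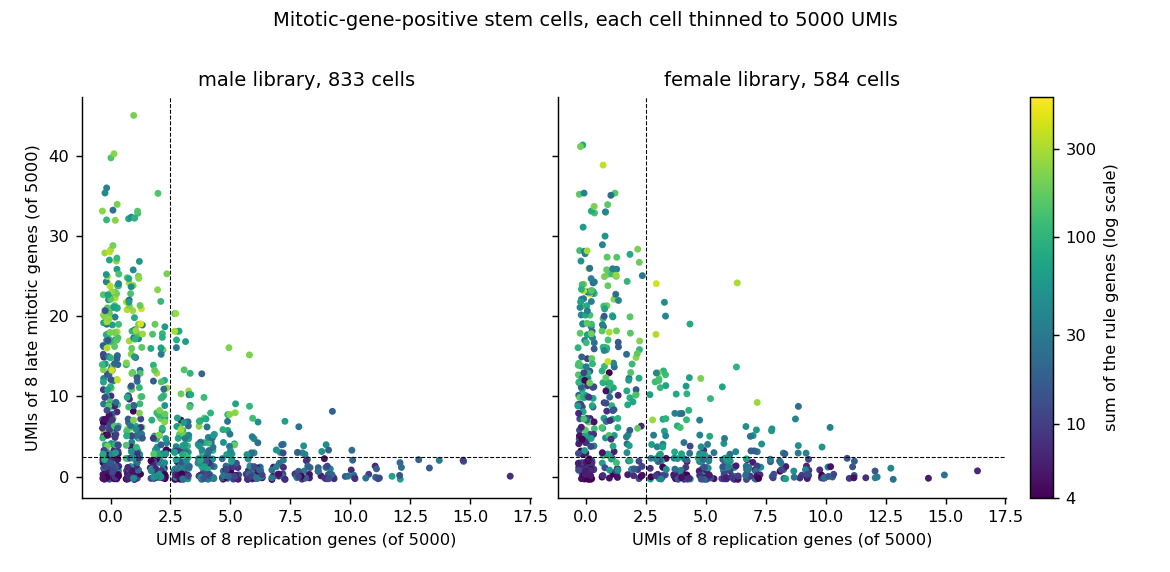
UMIs of the 8 late genes (vertical axis) against UMIs of the 8 replication genes (horizontal axis) in each member thinned to 5000 UMIs, with a small random shift to separate points, in 833 male (left) and 584 female (right) cells. Colour gives the sum of the 7 rule genes before thinning on a log scale, dashed lines mark the limit of 3 UMIs, and cells high in late genes lie along the left edge.

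Taking 3 UMIs as a limit on each set divided the members into 4 ranges. Late genes alone passed in 329 male (39.5%) and 251 female cells (43.0%), replication genes alone in 247 (29.7%) and 184 (31.5%), both sets in 119 (14.3%) and 82 (14.0%), and neither in 138 (16.6%) and 67 (11.5%). The limit was set after the values were seen, and 297 male and 165 female cells had 2 or 3 UMIs of a set, so that these are ranges and not cell types. Median depth was alike in the ranges, from 17900 to 20580.5 UMIs for males and from 13044 to 13966 for females. The median sum of the rule genes was 80 and 63 in cells with late genes alone, 59 and 53 with both, 14 and 13 with replication genes alone, and 8 and 7 with neither. Scrublet marked 10.1% of male and 13.4% of female cells with neither set.

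Regulators outside both sets differed in level between the ranges. *Cdc25c*, a phosphatase that activates CDK1, was at 35.3 and 37.3 CPM with late genes alone and at 1.11 and 0.43 CPM with replication genes alone. *Arl6ip1* was at 1388 and 1432 CPM against 199 and 222 CPM, and *Ccnb1* at 225 and 236 CPM against 7.66 and 8.92 CPM. *E2f1*, a driver of replication genes, was at 74.4 and 75.6 CPM with replication genes alone and at 8.49 and 8.21 CPM with late genes alone, and *Slbp*, which binds histone mRNA, at 309 and 383 CPM against 99.0 and 104 CPM. *Top2a* and *Mki67* differed less, with *Mki67* at 539 and 661 CPM in late cells and 159 and 234 CPM in replication cells. *Ccnb1*, *Top2a* and *Mki67* are genes of the rule, whose sum chose the members and also differed between the ranges. *Foxm1* stood at 35.4 and 40.4 CPM in late cells against 18.2 and 21.7 CPM in replication cells, and *Mybl2*, which encodes B-MYB, at 4.80 and 5.94 CPM against 25.2 and 30.7 CPM.

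Of 14 replication-dependent histone genes, which package newly copied DNA, 13 were highest in cells with both sets in each library, *Hist1h2bc* being the exception. The 14 summed to 15555 and 15075 CPM with both sets, 6060 and 5245 CPM with replication genes alone, 6962 and 6145 CPM with late genes alone and 5375 and 3134 CPM with neither. *Hist1h1b* was at 3830 CPM in male and 4536 CPM in female cells with both sets, against 1560 and 1671 CPM with replication genes alone and 1437 and 1593 CPM with late genes alone. *Hist1h1e* gave 1702 and 1680 CPM against 664 and 635 CPM and against 883 and 801 CPM. The kit captures polyadenylated RNA, whereas most histone mRNA of this class ends in a stem-loop, and near-identical gene copies can share reads, so that these levels are uncertain.

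**Figure D3:**
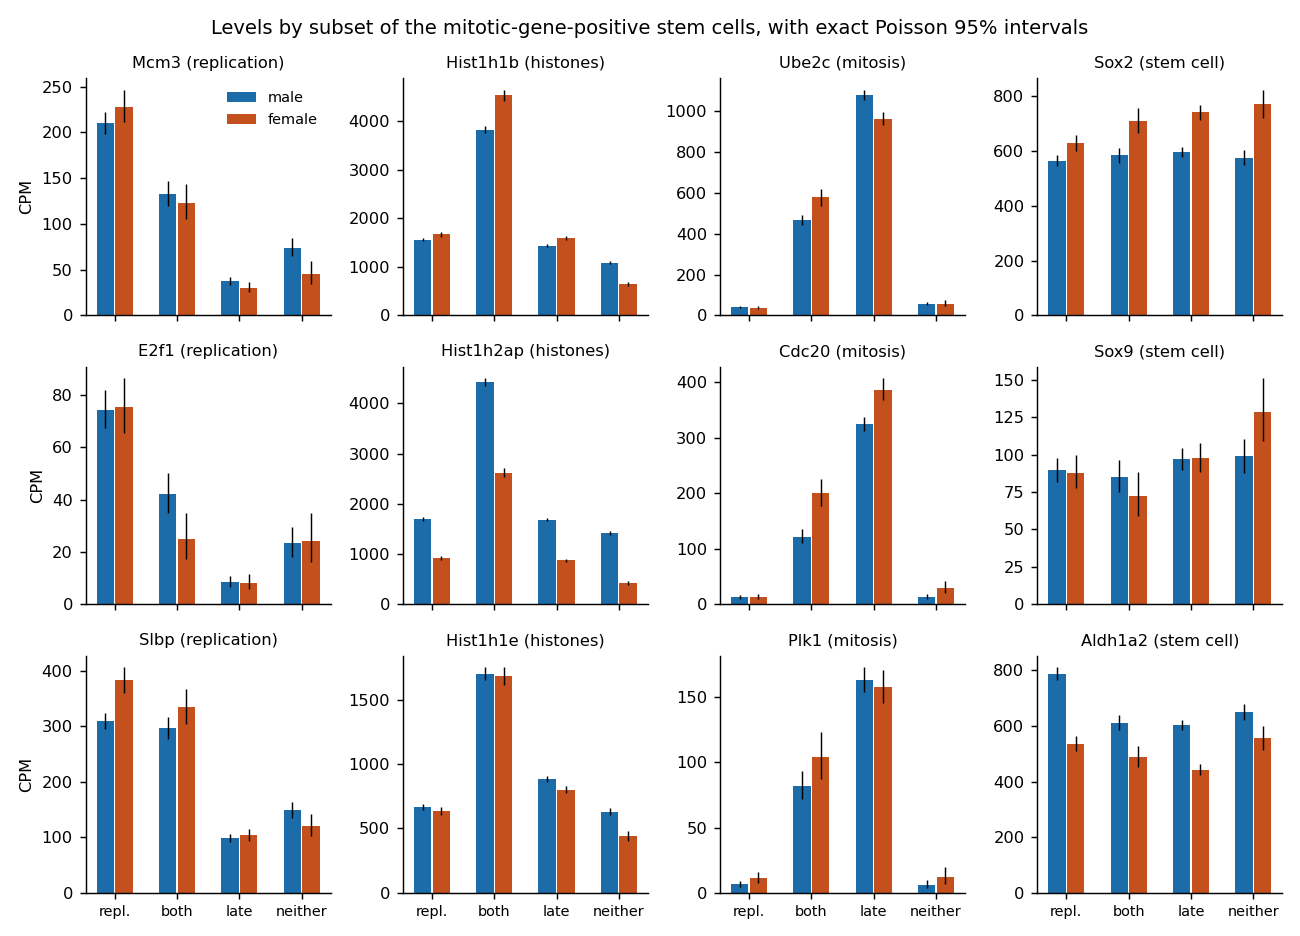
Level in CPM (vertical axes) of 12 genes in members with at least 3 UMIs of replication genes alone, of both sets, of late genes alone, and of neither, in the male (blue) and female (orange) library, with exact Poisson 95% intervals. Over the first 3 ranges replication genes are lower and mitotic genes higher from left to right, histone genes are highest in cells with both sets, and Sox2 stays between 565 and 772 CPM. Mcm3, Cdc20 and Plk1 belong to the sets that define the ranges, and Ube2c and Sox2 to the rule that chose the members.

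Stem cell genes varied less over the ranges. *Sox2*, of which every member had to hold a UMI, lay between 565 and 595 CPM for males and between 630 and 772 CPM for females. *Ednrb*, which marks stem cells of the cleft, lay between 65.2 and 69.3 CPM and between 139 and 151 CPM. *Aldh1a2*, a retinoic acid synthesis enzyme that marks stem cells of the anterior lobe, was at 787 CPM with replication genes alone and at 603 CPM with late genes alone in the male library, and at 536 and 443 CPM in the female. *Cdkn1b*, which encodes the CDK inhibitor p27, was at 138 and 139 CPM in late cells and 74.0 and 69.1 CPM in replication cells, and the G1 cyclin gene *Ccnd1* at 389 and 298 CPM against 504 and 401 CPM.

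Members were next compared with low-score cells across all genes with at least 50 CPM in a group and 100 UMIs in all, 3505 genes. Since the cells were chosen by mitotic genes, the folds (CPM plus 5, members over low-score cells) describe the choice and carry no test. In both libraries, 232 genes (6.62%) were at least 2-fold higher and 31 (0.884%) at least 2-fold lower. Over all tested genes the median log2 fold was 0.04 for males and 0.02 for females. Outside the rule the highest were *Prc1*, which bundles the spindle midzone (45.2-fold and 56.2-fold), *Nusap1*, a spindle protein (43.3-fold and 83-fold), *Hist1h2ap* (39.7-fold and 50.4-fold) and the PCNA-binding factor *Pclaf* (39.1-fold and 50.3-fold). They were followed by *Tpx2*, *Cenpa*, *Ccna2*, *Hist1h1b*, *Cdca8* and *Cdca3*, at 28-fold to 43.0-fold. *Prc1*, for example, was at 414 CPM in male and 543 CPM in female members, against 4.27 and 4.75 CPM in low-score cells.

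**Figure D4:**
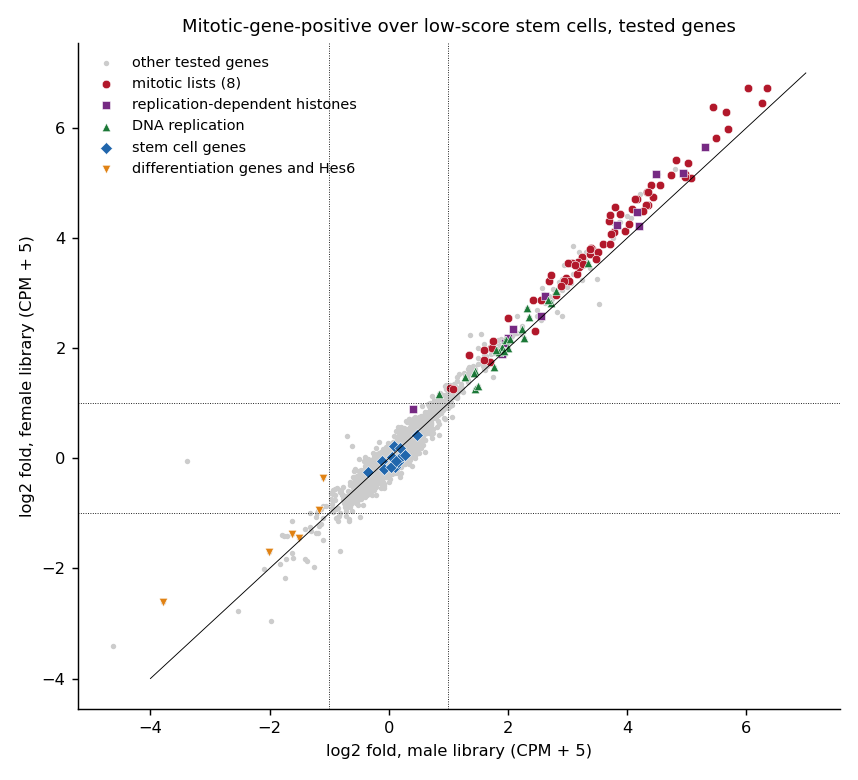
Log2 fold of members over low-score stem cells (CPM plus 5) in the female library (vertical axis) against the male library (horizontal axis) for 3505 tested genes, with gene lists in colour. Dotted lines mark 2-fold and the solid line equal folds. The 7 rule genes and the mitotic lists lie at the upper right, stem cell genes around 0 and differentiation genes with Hes6 at the lower left.

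The mitotic lists were higher throughout among their tested members, a count that the filter favours, because a gene silent in low-score cells is tested only where members express it. Of 9 kinases 7 were tested and all were higher, among them *Aurkb*, the passenger complex kinase (126 and 152 CPM against 1.01 and 0.81 CPM) and *Plk1*, which drives entry to and exit from mitosis (78.5 and 86.7 CPM against 0.37 and 0.24 CPM). Of 12 kinesins 9 were tested and higher, led by *Kif11*, which separates the spindle poles, at 107 and 135 CPM, *Kif23* at 163 and 228 CPM, and *Cenpe*, which aligns chromosomes, at 111 and 162 CPM. All 11 tested of 12 centromere and kinetochore genes, 15 of 16 spindle and midbody genes and 9 of 9 condensin and passenger genes were higher, with median folds from 7.43 to 17.2. For the APC/C and checkpoint, 6 of 10 were tested and higher, from *Cdc20*, its activator (20.3-fold and 28.6-fold), to *Fzr1*, the activator of late mitosis and G1 (2.04-fold and 2.44-fold). Securin (*Pttg1*), whose destruction frees separase, was below the filter and stood apart from this list at 25.8 and 21.1 CPM in members and 35.2 and 32.4 CPM in low-score cells. Among cyclins and CDK regulators 5 of 10 were tested and higher, such as *Ccnb2* (192 and 262 CPM against 2.43 and 2.52 CPM) and *Wee1*, an inhibitor of CDK1 (57.7 and 58.0 CPM against 14.3 and 13.8 CPM). Abundant chromatin proteins were higher to a smaller extent, 8 of 10 at 2-fold, with *Hmgb2* at 2283 and 2929 CPM against 214 and 262 CPM and the heterochromatin protein gene *Cbx5* only 1.36-fold and 1.35-fold.

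Replication genes were also higher, 23 of 24 tested, with median folds of 3.85 and 4.03. *Pcna*, the sliding clamp, was at 106 and 127 CPM against 24.8 and 27.7 CPM, and *Rrm2*, which makes deoxynucleotides, at 75.2 and 77.8 CPM against 2.92 and 2.09 CPM. The members were also set beside 235 male and 217 female stem cells chosen by at least 6 UMIs of the 8 replication genes and a rule sum of at most 3 (replication-high cells). The limit on the sum fixes the mitotic side of this comparison. Against these cells, 149 of 3476 genes (4.29%) were 2-fold higher in the members and 4 (0.115%) lower in both libraries. Of 26 replication genes tested there, 2 were higher (*Rrm2* and *Tyms*) and none lower by 2-fold, though *Mcm3*, *Mcm4* and *Mcm6* of the helicase were at 0.50 to 0.74 of their level in replication-high cells. Of the genes named here, *Mcm3*, *Mcm6* and *Rrm2* were among the 8 that chose the replication-high cells. Histone genes were 2-fold higher than in the replication-high cells for 13 of 13 tested, with *Hist1h3c* at 144 and 208 CPM against 1.45 and 1.70 CPM. The 14 histone genes summed to 7782 and 6764 CPM in members, 691 and 501 CPM in replication-high cells and 804 and 659 CPM in low-score cells. Histone RNA in the replication-high cells was below the low-score level, and how far the limit on the sum sets this was not tested. The replication-high cells are named by the genes that chose them and were not called S-phase cells.

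Genes of G1 were mostly within 2-fold. Of 13 tested, *Cdkn2c* and *Cdkn2d*, inhibitors of CDK4 and CDK6, were higher, *Cdkn2c* at 80.1 and 81.1 CPM against 5.19 and 4.41 CPM. *Gadd45g*, a growth arrest gene, was lower at 85.4 and 70.0 CPM against 292 and 194 CPM. *Cdkn1c*, which encodes the CDK inhibitor p57, was at 363 and 373 CPM against 628 and 593 CPM, ratios of 0.58 and 0.63, and nearly the same in replication-high cells, at 342 and 344 CPM. *Ccnd2* was at 77.9 and 116 CPM against 127 and 255 CPM in low-score cells and 171 and 332 CPM in replication-high cells, whereas *Ccnd1* was at 410 and 317 CPM against 228 and 234 CPM. Immediate-early genes, which respond to dissociation, had no member past 2-fold among 12 tested, with median folds of 0.90 and 0.85.

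Stem cell genes did not differ by 2-fold for any of 12 tested. The 12 include *Sox2*, of which both groups had to hold a UMI, and *Sox9*, whose locus made the sorted GFP. How far this sets the ratios of *Sox2* and *Sox9* was not tested. The median fold of the 12 was 1.07 for males and 0.99 for females, the largest being *Krt8*, an epithelial keratin, at 1.39 and 1.35. *Sox9* was at 93.3 and 95.3 CPM in members and 86.1 and 107 CPM in low-score cells. Receptors and targets of Notch were alike, with *Notch2* at 1.21-fold and 1.04-fold, *Hey1* at 0.99-fold and 0.93-fold and *Hes1* at 855 and 1578 CPM against 640 and 1449 CPM. None of 7 genes of the WNT, Hedgehog and YAP response passed 2-fold, and *Ptch1*, Hedgehog receptor and target, was at 61.9 and 67.5 CPM against 53.3 and 66.4 CPM. *Ednrb* was at 67.5 and 146 CPM in members against 62.0 and 152 CPM, and *Aldh1a2* at 665 and 491 CPM against 548 and 473 CPM.

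**Figure D5:**
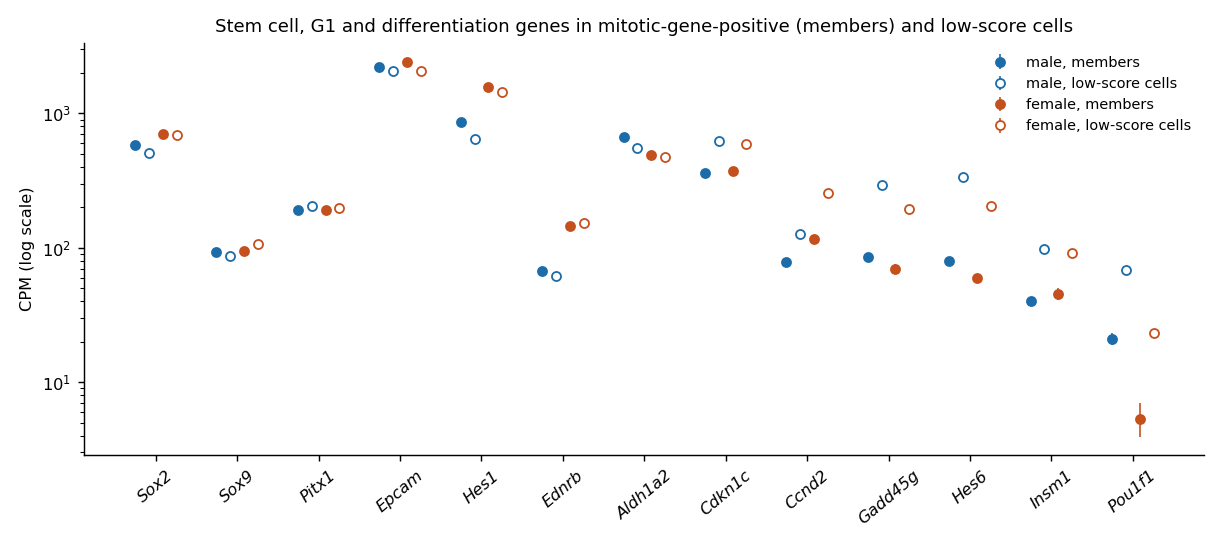
Level in CPM (vertical axis, log scale) of stem cell, G1 and differentiation genes in members (filled) and low-score cells (open) of the male (blue) and female (orange) library, with exact Poisson 95% intervals, mostly smaller than the points. Sox2 to Aldh1a2 lie close together in members and low-score cells, while Gadd45g, Hes6, Insm1 and Pou1f1 lie lower in members.

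Cells with a UMI of each regional marker were found among the members. After thinning, *Ednrb* was detected in 23.2% of male and 45.4% of female members and in 20.6% and 38.3% of low-score cells, and *Aldh1a2* in 87.5% and 81.7% against 70.7% and 70.4%. In replication-high cells the thinned shares were 32.9% and 47.0% for *Ednrb* and 86.6% and 84.7% for *Aldh1a2*, so that high shares were not particular to the members. Before thinning the shares in members were 52.6% and 68.9% for *Ednrb* and 93.8% and 93.4% for *Aldh1a2*. In mesenchymal barcodes with *Dcn* and no *Sox2* UMI, of median depth 7956 and 7606 UMIs, thinned shares were 0.216% and 1.85% for *Ednrb* and 6.03% and 2.95% for *Aldh1a2*. When the rule itself was applied to thinned cells, 20.03% of male and 12.2% of female stem cells with *Aldh1a2* alone were members (intervals 18.3 to 21.8 and 10.7 to 14.0%), 17.4% and 8.94% of those with *Ednrb* alone (11.5 to 24.8 and 6.24 to 12.3%), and 17.2% and 15.5% of those with both (14.3 to 20.4 and 13.4 to 17.8%). In cells with neither UMI the shares were 6.98% and 6.09% (5.21 to 9.12 and 4.41 to 8.17%). The intervals of the marked cells overlapped in the male library. In the female library those of cells with *Ednrb* alone and with both did not.

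Of 19 differentiation genes, 5 passed the filter on low values and 3 of these were at least 2-fold lower in members of both libraries. All 3 reached 50 CPM in low-score cells but not in members, so that the filter favours this direction. *Neurod1*, a factor of early endocrine cells, was at 1.55 and 0.76 CPM against 85.3 and 30.2 CPM, *Mycl* at 20.4 and 18.1 CPM against 73.5 and 54.7 CPM, and *Pou1f1*, the factor of the somatotroph, lactotroph and thyrotroph lineage, at 20.9 and 5.31 CPM against 68.5 and 23.2 CPM. *Insm1* and *Isl1* reached 2-fold in the male library alone. *Hes6* of the Notch list, which opposes HES1, was at 79.3 and 59.1 CPM against 335 and 204 CPM. In replication-high cells these genes were near the members' level, with *Hes6* at 88.3 and 58.6 CPM and *Neurod1* at 1.45 and 0.34 CPM. Low-score cells were not held to the *Cga* limit, which members had to pass, and with that limit their *Neurod1* was at 11.4 and 6.16 CPM, so that the ratio moved from 0.07 and 0.16 to 0.40 and 0.52. *Hes6* stayed more than 2-fold lower, at 288 and 192 CPM in the *Cga*-limited cells.

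The other named genes that were lower were *Chga*, a protein of secretory granules (62.4 and 15.0 CPM against 261 and 150 CPM), *Scg3*, *Stmn3*, *Enho*, *Oacyl*, *Fam183b* and *Nap1l5*, by 3.05-fold to 7.76-fold. With low-score cells weighted to the depth of the members, the ratios of these 7 genes were lower still, for example 0.0995 and 0.0483 for *Chga* in place of 0.253 and 0.129. Some of these moved with cells that held much *Pomc*, the hormone gene of corticotrophs and melanotrophs. *Pomc* was at 10000 CPM or more in 4.91% of male and 2.78% of female low-score cells but 2.12% and 0.34% of members, and its summed level was 7997 and 1458 CPM in members against 19171 and 5715 CPM. Without those cells, an alternative chosen after seeing the data, 22 genes were lower in place of 31, 21 of them shared. *Oacyl* was then close to absent from every group, at 0.497 and 0.437 CPM in members against 0.977 and 0.884 CPM, where the 5 CPM added to each level set the ratio. *Nap1l5* was at 5.08 and 1.97 CPM against 13.8 and 3.54 CPM and no longer passed 2-fold, and *Fam183b* had ratios of 0.35 and 0.52, past 2-fold for males alone, while *Chga* (0.19 and 0.13), *Hes6* (0.24 and 0.33) and *Scg3* (0.29 and 0.36) remained more than 2-fold lower.

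Members also differed from cells with *Lef1*, the WNT effector that marks differentiating progeny in this sort. These cells were chosen by the same sum with at least 1 *Lef1* UMI (92 male and 27 female cells, median 24155.5 and 24847 UMIs). Of 3541 genes 22 (0.621%) were 2-fold lower in members of both libraries and 1 (0.0282%) higher, which was *Pomc*. Its level in members, 7997 and 1458 CPM, rested on few cells. Without members at 10000 CPM or more of *Pomc* it was 152 and 54.6 CPM. The *Lef1*-positive cells, with none removed, were at 3120 and 96.8 CPM, so *Pomc* is not read as a trait of the members. The 22 include *Lef1* and *Cga*, which the rule holds down in members, and 20 remained without them. Of 69 tested genes of the mitotic lists none was 2-fold apart in both libraries. None was 2-fold apart for males, where the median fold was 1.23, but 26 were 2-fold higher in female members, with a median of 1.90, for example *Cenpa* (2.63-fold) and *Tpx2* (2.36-fold). The share of all genes past 2-fold in the female library alone is not given here. Female members were also shallower (median 13579 UMIs), and a deeper cell can reach the fixed sum at a lower CPM. Nothing is therefore read from the 26. *Hes6* was at 315 and 327 CPM in the *Lef1*-positive cells and 2-fold lower in members, as were *Mycl*, *Gadd45g*, *Isl1* and *Insm1*. Scrublet marked 25% and 44.4% of the *Lef1*-positive cells, whose part in these values was not tested.

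Members made up a larger share of stem cells in the male library. Among cells that had a *Sox2* UMI, no *Lef1* UMI and *Cga* under the limit (3853 male, 3797 female), members were 23.3% of males' and 15.5% of females' cells (intervals 21.9 to 24.6 and 14.4 to 16.7%), a ratio of 1.5 with limits of 1.31 and 1.71 from the bounds of both. With the rule applied to cells thinned to 5000 UMIs the shares were 16.8% and 11.7% and the ratio 1.43 (1.22 to 1.69). Of all barcodes that passed the filters, however, members were 11.2% and 10.5%, a ratio of 1.06 (0.926 to 1.22), the barcodes kept being 8009 male and 5604 female. Replication-high cells were 6.10% and 5.72% of stem cells, a ratio of 1.07 (0.825 to 1.38). With 1 library per sex no test of sex was possible, and animals could not be compared.

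Within the members, 11 of 3226 genes (0.341%) were at least 2-fold higher in male and 5 (0.155%) in female cells, against 21 (0.674%) and 6 (0.192%) of 3117 among low-score cells. Male members were higher in *Gh*, growth hormone (1873 against 113 CPM), *Pomc*, and the secretory genes *Pcsk1n*, *Resp18* and *Chga*, by 3.38-fold to 16-fold, and male low-score cells were higher in the same genes, by 1.72-fold to 8.84-fold. Except for *Gh* these levels rested largely on cells at 10000 CPM or more of *Pomc*. Without them male and female members were at 152 and 54.6 CPM for *Pomc* and 39.1 and 8.97 CPM for *Pcsk1n*. *Chga* was then at 14.4 and 2.41 CPM and *Resp18* at 6.35 and 1.31 CPM, while *Gh* was at 1935 and 113 CPM. Female members were higher in *Xist* (644 against 0.37 CPM), which is transcribed from the inactive X chromosome, *AC160336.1*, *AY036118*, *Ednrb* (2.08-fold) and *Hist1h3i* (2.01-fold). Low-score cells showed the same for *Ednrb*, at 2.34-fold. Of the rule genes, *Ube2c* differed least, at 510 CPM in female and 508 CPM in male members, and *Top2a* most, at 761 and 477 CPM. Because the rule asked for a fixed number of UMIs and female members were shallower, nothing is read from these differences.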

How the data were processed

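GFP-positive cells of P3 Sox9iresGFP/+ pituitaries were profiled with 10x Genomics 3 prime kits in 1 male and 1 female library. The authors aligned reads to mm10 with an *eGFP* sequence in Cell Ranger 3.0.2 and deposited UMI counts per gene and barcode as whole numbers, without normalization, for 31055 features in 10569 male and 5796 female barcodes. The submitters' processing notes name Seurat 3 and 4 with R 3.6.0. The kit version is given differently by the sources.

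Barcodes with at least 1000 genes and at most 10% mitochondrial UMIs were kept, 8009 male and 5604 female. The members and gene lists were chosen with earlier results of these data known. Counts were summed per library and group and divided by the group total (CPM). Folds used 5 CPM added to each level, for genes with at least 50 CPM in a group and 100 UMIs in all. A gene counted as higher or lower at 2-fold in both libraries. Named genes are those of 25 fixed lists, the 10 highest and 10 lowest folds outside the rule by the less extreme library, and the 5 largest ratios between the sexes in each direction. 1 gene that this rule names is not reported here and was left out of its list. Intervals are exact Poisson (levels) and Clopper-Pearson (shares) at 95% and cover counting error only. With 1 library per sex there was no replicate, no test and no p-value, and cells were not used as replicates. Doublets were marked, not removed, with Scrublet in scanpy 1.11.5, as the highest scores at 0.8% per 1000 cells. Each cell was thinned to 5000 UMIs without replacement for shares. Fold calls and thinning were tested on simulated data. Sums and intervals used Python 3.11.15, numpy 2.4.6 and scipy 1.17.1.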

Additional observations from a re-analysis of the deposited data

Results flagged for a closer look

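Among the listed genes that were tested, a pair had levels in members and low-score cells apart beyond their counting intervals in both libraries, in opposite directions. *Sox9* (1.08 and 0.893) and *Ednrb* (1.08 and 0.961) also had ratios on either side of 1, but their intervals overlapped in at least 1 library. *Six3*, a homeobox gene of the stem cell list, had a ratio of members over low-score cells of 1.11 for males and 0.949 for females. *Dcn*, a mesenchymal gene, had ratios of 0.615 and 1.33, with 38.9 and 40.8 CPM in members and 66.4 and 29.4 CPM in low-score cells. Without cells marked by Scrublet the *Dcn* ratios were 0.542 and 0.475, in the same direction in both libraries. Neither difference between the libraries was tested.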

How the results depend on the processing

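The share of members in the male library was 21.5% with the filters of the study's methods. The male and female shares were 16.8% and 11.7% after thinning, 25.3% and 17.0% with a sum of at least 3, 20.6% and 13.9% with a sum of at least 6, and 11.2% and 10.5% of all kept barcodes, where the ratio of the sexes was 1.06. The ratio lay between 1.39 and 1.60 in the other settings. Genes 2-fold lower numbered 63 with low-score cells weighted to the depth of the members, and without the filter on low counts 417 were higher and 91 lower. In the remaining settings 222 to 254 were higher and 22 to 34 lower. After thinning, 223 of the 254 higher genes were shared with the main setting but only 16 of the 31 lower ones, and the cause was not tested. The 10 named higher genes stayed past 2-fold in both libraries in all settings run for them, and the named lower genes in 15 to 20 of 20 folds. No paired analysis was possible because each sex had 1 library. Genes under the 50 CPM filter, such as *Foxm1*, *Cdc25c* and *Pttg1*, were not among those tested.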

Other observations

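Lists of other cell types were also read in members and low-score cells. Mesenchymal genes summed to 139 and 133 CPM in members and 208 and 93.9 CPM in low-score cells. Without cells marked by Scrublet the sums were 86.1 and 19.8 CPM against 115 and 32.1 CPM, and *Dcn* in female members went from 376 to 4 UMIs. Pituicyte genes summed to 2.24 and 0.65 CPM against 6.36 and 1.99 CPM. *Pax7*, a melanotroph factor, was at 2.88 and 2.06 CPM in members and 17.1 and 14.1 CPM in low-score cells, and *Tbx19*, which corticotrophs and melanotrophs need, at 0.85 and 0.43 CPM against 5.89 and 4.51 CPM.

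Cells that met the rule but for a single condition were counted as well. With *Cga* at or over the limit there were 91 male cells and 1 female cell, and the male cells had a median of 3859 UMIs and 1882 genes, well under the 17316 UMIs of the members. With no *Sox2* UMI there were 75 male and 16 female cells, of median 8832 and 15630 UMIs, in which Scrublet marked 4% and 25%.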
